A study of Mus musculus with 2 samples.

Results

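The very RNA-rich cells are the tumor-infiltrating CD8+ lymphocytes (TIL) that held at least 50000 unique molecular identifiers (UMIs, each the count of 1 captured mRNA molecule) with less than 7.5% of them from the 13 mitochondrially encoded genes. They lie beyond the upper limit of UMIs that the study set for its own cells. By this rule 204 of the 5320 deposited cells were members, 83 from lean and 121 from obese mice. Total UMIs chose the members, so every comparison of members with other cells describes that choice and carries no test.

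The study asked how diet-induced obesity alters antitumor CD8+ T cells. Sex-matched C57BL/6 mice, 16 weeks old, carried transplanted B16-F0 melanoma for 14 days. For 12 weeks they had been fed normal chow (NC, 21% of energy from fat, lean) or a western diet (WD, 40%, obese). CD8+ TIL were enriched with magnetic beads, sorted on CD8 staining and profiled with 10x Genomics 3′ single-cell RNA sequencing. Each diet had 1 library, and the number of mice behind a library is not given in the sources used here, so diet, mice and library cannot be told apart and no difference between the diets has a replicate check.

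An activated CD8+ T cell enlarges before it divides: it takes up amino acids and iron, builds ribosomes, shifts to glycolysis and fills its cytotoxic granules with perforin and granzymes, which together kill target cells. Resting naive and memory cells are small and express genes of quiescence and lymph node homing. In droplet data a high UMI total is also reached when 2 cells share a droplet, so T cell receptor families and genes of other lineages were counted cell by cell.

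The NC library held 33904480 UMIs in 2697 cells and the WD library 38869488 UMIs in 2623 cells. Of the 2539 NC cells under the mitochondrial limit, members were 3.27%, with a 95% Clopper-Pearson interval of 2.61 to 4.04. Of the 2410 such WD cells they were 5.02%, with an interval of 4.18 to 5.97. These few cells held 17.1% of all UMIs of cells under that limit in NC and 24.98% in WD. The WD share was thus above the NC share beyond counting error, which is the only error these intervals cover. The other WD cells were also deeper, with a median of 9103 UMIs against 7958 in NC. When the limit was set at the same multiple of each library's median, the shares were 3.899% for NC (3.18 to 4.73) and 4.48% for WD (3.69 to 5.39). These intervals overlap, so the difference between the libraries was then no longer beyond counting error.

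**Figure D1:**
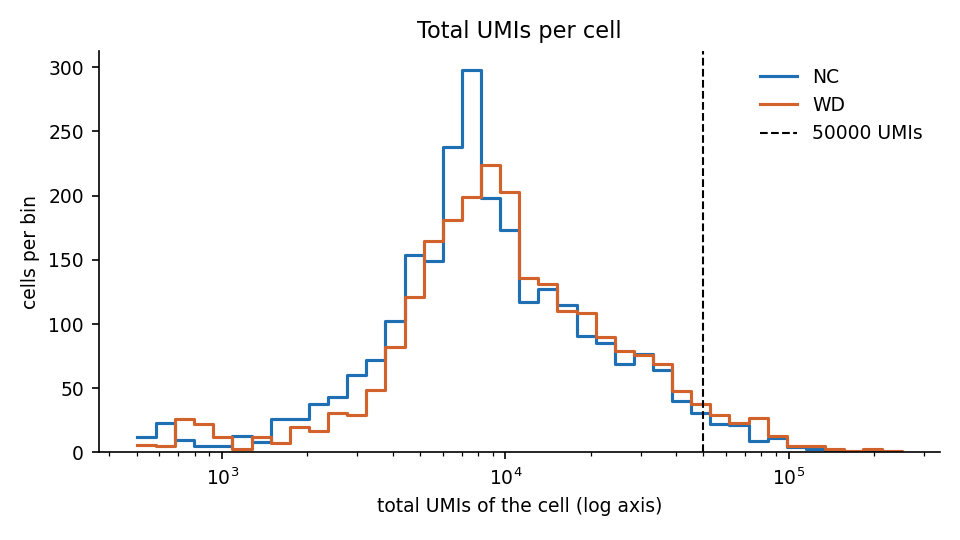
Number of cells (y axis) per bin of total UMIs (x axis, log scale) for NC and WD cells under the mitochondrial limit, with the limit of 50000 UMIs as a dashed line. Members form the upper tail of 1 continuous distribution in both libraries, with no separate peak, and reach 131654 UMIs in NC and 232119 in WD.

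Members spanned 50051 to 131654 UMIs in NC (median 63662) and 50239 to 232119 in WD (median 71618), and 7 NC and 17 WD members passed 100000. They had a median of 6540 detected genes in NC and 6659 in WD, against 2105 and 2324 in the 2456 NC and 2289 WD other cells with more than 500 and fewer than 50000 UMIs. At equal depth the gap was smaller. With each cell thinned at random to 10000 UMIs, members had a median of 2768 genes in NC and 2804 in WD, other cells deep enough for it 2600 and 2629, and cells with UMIs of both Ccr7 and Lef1, genes of naive and central memory cells, 2375 and 2406. The mitochondrial share of members had a median of 1.77% in NC and 2.27% in WD and a maximum of 2.88% and 3.81%. The medians were 1.79% and 2.45% in cells from 20000 UMIs and 2.10% and 2.64% in all other cells. No cell of 50000 UMIs or more was lost to the mitochondrial limit.

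Cells on both sides of the limit were looked at one by one. The 3 NC members nearest to it held 50051, 50166 and 50174 UMIs and 6733, 9668 and 4066 CPM (UMIs per 1000000 UMIs of the cell) of cell cycle genes. Just outside, NC cells of 49687, 49676 and 49231 UMIs held 1912, 8958 and 8287 CPM. The WD members nearest to it, at 50239, 50441 and 50493 UMIs, held 7086, 9873 and 12299 CPM, and the cells outside, at 49819, 49767 and 49575 UMIs, held 12666, 12759 and 13071 CPM. The values inside and outside the limit overlapped in NC, and in WD the 3 outside were above the 3 inside.

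The label of CD8+ T cells held in the members. At full depth all 83 NC and all 121 WD members had UMIs of Cd8a, Cd8b1 and Cd3e. These encode both CD8 chains and a chain of the CD3 complex. Cd8a stood at 603 CPM in NC members against 591 in other NC cells, and at 542 against 515 in WD. CPM are UMIs of a gene summed over a set of cells per 1000000 UMIs of that set. The 11 CD8 T cell genes summed to 7045 CPM in NC members and 7441 in other cells, and to 5832 and 6691 in WD. Of these 11, 1 was higher in members of both libraries, 8 were lower in both and 2 differed in sign between libraries. The defining genes of CD4 T cells and NK cells were at or near 0. Cd4 reached 1.22 CPM in NC and 1.05 in WD members, and Ncr1, the NK cell receptor NKp46, was at 0 UMIs in both, which allows up to 0.521 CPM in NC and 0.314 in WD (3 UMIs over the members of a library).

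Few genes differed by much in both libraries. Of 2857 genes with enough UMIs (at least 50 CPM in a set and 20 UMIs in members and in others), 6 were at least 2-fold higher in members of both libraries, 0.21% of those tested, and 43 were at least 2-fold lower, 1.51%. Of these, 4 of the 6 and 31 of the 43 reached 50 CPM only in the cells where they were higher, so the filter helped to set both counts and they stand as a description. The 6 were the granzyme genes Gzmd, Gzme and Gzmf, the protease inhibitor gene Serpine2, the fatty acid binding protein gene Fabp5 and Psat1, an enzyme of serine synthesis. Over all tested genes the median log2 ratio of members to others was 0.19 in NC and 0.19 in WD, with 1789 genes higher in both libraries and 758 lower in both. Scaling by edgeR's TMM factors in place of totals lowered every log2 ratio by 0.13 in NC and 0.05 in WD. It left 4 of the 6 genes, without Psat1 and Serpine2, and added 8 lower ones to make 51, and turned the direction of members against other cells for none of the gene lists below but the CD4 T cell list in WD.

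The counts depended on which cells the members were set against. Against the 373 NC and 416 WD other cells of 20000 to 50000 UMIs, no gene was 2-fold higher in both libraries and only Gzma was 2-fold lower. Against the 621 NC and 725 WD other cells past a cut for cycling (at least 10 UMIs of S phase and G2/M genes when thinned to 2000), Gzmd and Gzme were higher and 5 genes were lower: Gzma, Arl4c, Lars2, AY036118 and Gm26917. By the 2-fold rule the members therefore differed in 1 gene from the cells just below them in depth.

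Fabp5 (mm10, chr3:10012548-10016607) stood at 182 CPM in NC members and 82.9 in other NC cells, and at 236 and 110 in WD (log2 ratio 1.13 and 1.09). It was detected in 82 of 83 NC and all 121 WD members. Psat1 (chr19:15904678-15947337) stood at 53.5 CPM against 25.8 in NC and 66.2 against 28.7 in WD, and was detected in 79 and 120 members. Both genes were thus spread over nearly every member, and both stayed 2-fold higher when members with genes of another lineage or with 2 T cell receptor families were left out. Psat1 fell short of 2-fold with TMM factors and with totals without mitochondrial and ribosomal protein genes. Serpine2 (chr1:79794197-79861180) stood at 92.0 CPM against 43.0 in NC and 46.2 against 21.5 in WD.

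Close behind came 4 genes of growth and DNA synthesis. Srm, which makes the polyamine spermidine, reached log2 ratios of 0.95 in NC and 1.30 in WD, and Tfrc, the transferrin receptor that brings in iron, 0.92 and 0.88. Il2ra, the high-affinity chain of the interleukin-2 receptor, stood at 56.1 CPM against 18.6 in NC and 33.4 against 17.4 in WD. Rrm1, a subunit of ribonucleotide reductase, stood at 126 against 64.5 and 154 against 78.3. Srm and Il2ra passed the filter only through the members. None of the 4 reached 2-fold in both libraries.

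Most members carried cell cycle RNA. In cells thinned to 2000 UMIs, 68 of 83 NC members held at least 10 UMIs of the S phase and G2/M lists (81.9%, interval 72.0 to 89.5), as did 119 of 121 WD members (98.3%, 94.2 to 99.8). Of other cells, 26.7% in NC and 33.3% in WD passed the same cut, of those from 20000 UMIs 72.4% and 76.7%, and of the Ccr7 and Lef1 cells 10.7% and 12.5%. The NC members and the NC cells just below them were thus close, while the WD members stood above both, with intervals that did not overlap. The median member held 16 list UMIs of 2000 in NC (range 4 to 40) and 26 in WD (range 6 to 57), and 9 NC and 2 WD members lay within 2 UMIs of the cut.

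Genes of G2 and mitosis were higher in members, more so in WD. The G2/M list summed to 6476 CPM in NC members (95% Poisson interval 6410 to 6542) against 4678 in other cells, and to 9275 CPM in WD members (9214 to 9336) against 5451. In cells thinned to 2000 UMIs, G2/M UMIs outnumbered S phase UMIs in 78.3% of NC and 87.6% of WD members, ties not counted. The shares were 69.5% and 70.9% of other cells and 74.8% and 72.4% of those from 20000 UMIs. Other cells held few such UMIs, with medians of 4 in NC and 5 in WD for G2/M and 2 in both for S phase. The G2/M list is the longer, with 54 genes against 43. Of 33 tested G2/M genes, 32 were higher in the members of both libraries (9 of them passed the filter only through the members), none by 2-fold in both, with a median log2 ratio of 0.57 in NC and 0.91 in WD. Hmgb2, a chromatin protein of dividing cells and the list gene with the most UMIs, stood at 1901 CPM against 1430 in NC and 2866 against 1858 in WD. Top2a, the topoisomerase that untangles chromosomes, stood at 353 against 225 and 526 against 262, and Mki67, the gene of the Ki-67 antigen, at 170 against 109 and 261 against 132. Ube2c, which marks cyclins for destruction in mitosis, reached a log2 ratio of 0.69 in NC and 1.32 in WD. Hjurp, which loads the centromere histone, was the exception, at -0.28 in NC and 0.23 in WD.

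The S phase list summed to 3078 CPM in NC members against 2096 in other cells, and to 3683 against 2417 in WD. Of 25 tested S phase genes, 24 were higher in both libraries (8 of them passed the filter only through the members), none by 2-fold in both, with a median log2 ratio of 0.58 in NC and 0.67 in WD. Pcna, the sliding clamp of DNA polymerase, stood at 315 CPM against 210 in NC and 340 against 249 in WD. Replication histone genes were raised least, at 2700 CPM against 2237 in NC and 2632 against 1886 in WD, and were below cells from 20000 UMIs, at -0.48 and -0.089. Libraries primed on poly(A) capture only part of histone mRNA, most of which lacks a poly(A) tail.

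Set against cycling cells of lower depth, the members no longer stood out in genes of the cell cycle. G2/M genes summed to 8740 CPM in the cycling NC cells, above the 6476 of NC members (log2 ratio -0.43), and to 9089 in the cycling WD cells, level with the 9275 of WD members (0.03). The S phase list gave -0.26 and -0.07. Histone genes were lower in members on this comparison, at 2700 CPM against 4545 in NC and 2632 against 3292 in WD, and 13 of 14 were lower in both libraries. Of all 2857 genes, 1259 were higher in members than in cycling cells in both libraries and 782 lower. The cycling cells had been picked by G2/M and S phase UMIs themselves, which raises those sums in them. Members past the same cut held 7278 CPM of G2/M genes in NC and 9371 in WD.

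**Figure D2:**
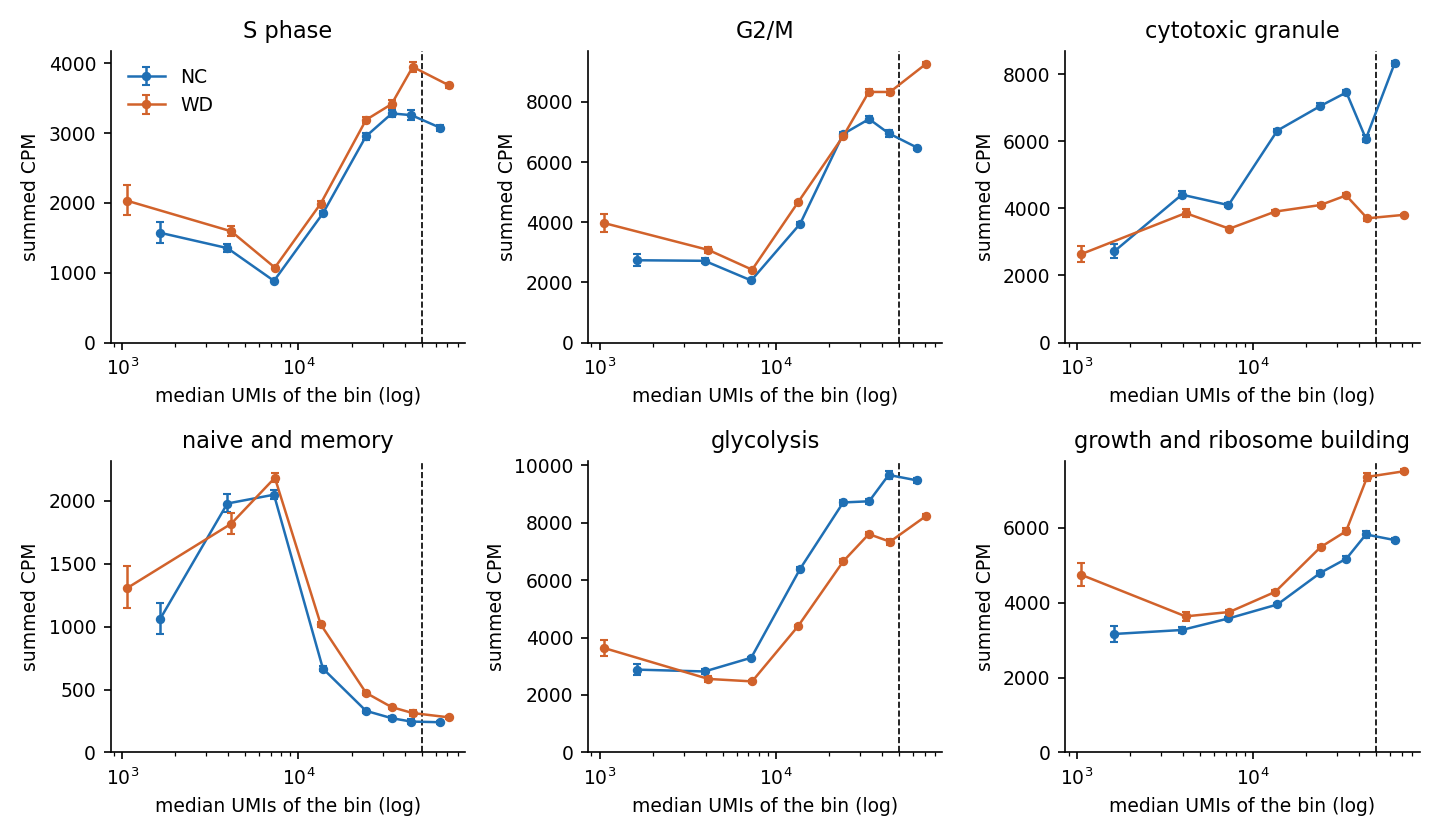
Summed CPM of 6 gene lists (y axes) in cells binned by total UMIs, plotted at the median UMIs of each bin (x axis, log scale), with 95% Poisson intervals; the rightmost point of each library is the members and the dashed line marks 50000 UMIs. S phase, G2/M and glycolysis genes climb from the bin of 5000 to 10000 UMIs to that of 20000 to 30000 in both libraries and then level off in NC, naive and memory genes fall over the same range, and granule genes rise with depth in NC more than in WD.

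The plot of gene lists by depth places these sums in order. In NC, G2/M genes stood at 2064 CPM in cells of 5000 to 10000 UMIs, 6933 at 20000 to 30000, 7432 at 30000 to 40000, 6956 at 40000 to 50000 and 6476 in members. In WD the same bins gave 2422, 6865, 8332, 8331 and 9275 CPM. The NC members were thus below the NC cells just under them and the WD members above theirs. S phase genes peaked below the limit in both, at 3282 CPM in NC cells of 30000 to 40000 UMIs and 3949 in WD cells of 40000 to 50000.

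The 15 NC members under the cycling cut held no less granule RNA than the others. They were not deeper, with a median of 55305 UMIs against 65480.5 in the other 68. G2/M genes stood at 2241 CPM in them against 7278, and S phase genes at 1846 against 3311. Granule genes stood at 9469 CPM against 8105 and Gzmb at 2734 against 2287. Dendritic cell genes stood at 837 CPM in these 15 against 125 in the 68, mostly in the 1 cell described below. In WD 2 members were under the cut.

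Genes for building ribosomes and for growth were higher in members than in other cells, and also higher than in cycling cells. The list summed to 5674 CPM in NC members against 4295 in other cells and 4946 in cycling cells, and to 7511 against 4935 and 5712 in WD. Against cells from 20000 UMIs the log2 ratio was 0.14 in NC and 0.31 in WD, and NC cells of 40000 to 50000 UMIs held 5824 CPM, above the NC members. Of 14 tested genes, 13 were higher in both libraries, with a median log2 ratio of 0.50 in NC and 0.67 in WD, and 12 were higher than in the cycling cells. Npm1 and Ncl, the nucleolar proteins nucleophosmin and nucleolin, stood at 1801 CPM against 1410 and 1048 against 741 in NC, and at 2348 against 1475 and 1461 against 919 in WD. Hspd1, the mitochondrial chaperonin, stood at 379 against 223 in NC and 491 against 249 in WD. The 1 gene that went the other way was Slc3a2, the heavy chain of amino acid transporters, at -0.34 and -0.46. Myc itself, the transcription factor of this program, was low and not among the tested genes, at 38.4 CPM against 48.5 in NC and 39.3 against 47.4 in WD.

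All 11 tested glycolysis genes were higher in members of both libraries, none by 2-fold in both, and all 11 were higher than in cycling cells. The list summed to 9470 CPM in NC members, 6401 in other cells and 7983 in cycling cells, and to 8241, 5111 and 6418 in WD. Against cells from 20000 UMIs the list gave 0.088 in NC and 0.21 in WD, and NC cells of 40000 to 50000 UMIs held 9662 CPM, again above the NC members. Gapdh stood at 3491 CPM against 2286 in NC and 3241 against 2000 in WD, and Ldha, which turns pyruvate into lactate, at 1398 against 886 and 1280 against 695. Gpi1, the isomerase after hexokinase, had the smallest ratio in both libraries, at 0.09 in NC and 0.19 in WD. Ribosomal protein genes, in contrast, summed to slightly less of the RNA, 267170 CPM in NC members against 295746 in other cells and 272536 against 292499 in WD.

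Cytotoxic granule genes split by library. The list of granzymes, perforin and granule proteins summed to 8322 CPM in NC members against 5896 in other NC cells (log2 ratio 0.50, interval 0.48 to 0.51), and to 3805 against 3871 in WD (-0.02, -0.04 to -0.01). The WD value was near 0 and its sign turned with a limit of 60000 UMIs (0.022), with means over cells (0.0029) and with thinning to 2000 UMIs (0.011). Of 13 tested genes, 7 were higher in both libraries, 3 of them by 2-fold (Gzmd, Gzme, Gzmf), and 4 were lower in both, 1 by 2-fold (Gzma). Over all 2857 tested genes, 1789 were higher in both and 758 lower. Gzmd and Gzme passed the filter only through the members, and Gzma and Lamp1 only through the other cells. Gzmb, the main granzyme of cytotoxic T cells, stood at 2358 CPM against 1311 in NC and 772 against 616 in WD. Single members ranged from 36.9 to 5805 CPM of Gzmb in NC (median 2112) and from 0 to 3269 in WD (median 565). Prf1, the pore former perforin, stood at 763 against 417 in NC and 262 against 171 in WD. The granule genes Ctsw, Lamp1 and Gzmk were lower in members of both libraries, Ctsw by -0.51 and -0.63.

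In cells thinned to 2000 UMIs, the shares with a UMI of Gzmb or Prf1 were higher in members of both libraries than in all other cells. A UMI of Gzmb was seen in 89.2% of NC members and 46.7% of other NC cells, and in 58.7% and 35.9% in WD. In the Ccr7 and Lef1 cells, which should hold little of it, the share was 10.7% in NC and 9.25% in WD, at a median depth before thinning of 7769 and 8963 UMIs. Before thinning, 83 of 83 NC and 117 of 121 WD members had a Gzmb UMI. For Prf1 the thinned shares were 68.7% of members, 30.1% of others and 7.21% of the Ccr7 and Lef1 cells in NC, and 41.3%, 16.6% and 5.67% in WD. Mki67 was seen in 20.5%, 9.31% and 2.82% in NC and in 40.5%, 11.5% and 4.78% in WD, against 88.0% and 98.3% of members before thinning. All of these member shares were above those of the Ccr7 and Lef1 cells. The cycling other cells were closer, with Gzmb in 64.4% in NC and 51.4% in WD, and Prf1 in 42.4% and 20.8%. For Gzmb in WD their interval (47.7 to 55.1) overlapped that of members (49.4 to 67.6). Mki67 was seen in 30.1% of cycling cells in both libraries, above the share of NC members and below that of WD members. For Gzma the thinned share in WD was 0% of members (interval 0 to 3.003) against 5.37% of others (4.46 to 6.41). In NC it was 2.41% of members, 2 of 83 cells, against 5.06% of others. The interval of the NC members, 0.293 to 8.43, holds that 5.06%, so the NC difference was within counting error.

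Gzmc to Gzmg lie in 1 cluster beside Gzmb on chromosome 14 (mm10, minus strand; Gzmd at chr14:56129556-56132608, Gzmb at chr14:56258838-56262260). They encode granzymes found in mouse and made by strongly activated T and NK cells. Because Gzmd, Gzme and Gzmf are 3 of the 6 genes above, their promoters are shown beside that of Gzmb, whose ratio to other cells was smaller. Each run holds 200 bases of RefSeq sequence (GRCm38.p6), 5′ to 3′ on the gene's strand, from 220 to 21 bases before the annotated start, and capitals mark a match to TGANNTCA, letters chosen after the windows were seen and searched on both strands.
Gzmd, chr14:56132614-56132813, minus strand: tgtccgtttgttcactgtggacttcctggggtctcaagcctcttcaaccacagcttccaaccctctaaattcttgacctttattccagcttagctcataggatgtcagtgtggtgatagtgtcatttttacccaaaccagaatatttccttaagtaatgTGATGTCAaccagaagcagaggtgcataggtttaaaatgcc
Gzme, chr14:56120646-56120845, minus strand: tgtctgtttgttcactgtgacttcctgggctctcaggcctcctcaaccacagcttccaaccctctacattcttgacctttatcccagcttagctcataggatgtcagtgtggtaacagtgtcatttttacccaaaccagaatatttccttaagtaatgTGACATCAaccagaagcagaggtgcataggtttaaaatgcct
Gzmf, chr14:56211428-56211627, minus strand: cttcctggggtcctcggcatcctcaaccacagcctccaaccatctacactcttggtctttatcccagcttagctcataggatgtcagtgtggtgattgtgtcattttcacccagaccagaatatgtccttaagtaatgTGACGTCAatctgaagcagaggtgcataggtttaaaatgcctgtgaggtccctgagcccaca
Gzmb, chr14:56262355-56262554, minus strand: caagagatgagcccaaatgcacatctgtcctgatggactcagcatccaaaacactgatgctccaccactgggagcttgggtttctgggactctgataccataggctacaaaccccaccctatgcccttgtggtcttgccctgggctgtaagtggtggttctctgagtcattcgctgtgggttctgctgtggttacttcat

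The capitals fall 61 bases before the start in Gzmd, 62 in Gzme and 82 in Gzmf. In Gzmf the match is TGACGTCA, the full cyclic AMP response element, which is 1 of the forms of TGANNTCA. Gzmc and Gzmg hold TGACGTCA too, while the Gzmb window holds no TGANNTCA. Of 32851 promoter windows of the same 200 bases, 9.89% hold TGANNTCA and 1.25% hold TGACGTCA. All 6 windows hold 2 matches to TGTGGT, the core letters bound by Runx factors. Of all windows 11.5% hold at least 1 match, and the share with 2 was not counted. TATAAA and TTTAAA were searched too. The Gzmd and Gzme windows are 94.97% identical, so these matches are not independent of each other, and a match describes letters only.

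In WD these genes came from few members, and in NC Gzmd did too. Gzmd stood at 163 CPM in NC members against 48.7 in other NC cells, and at 21.4 against 5.16 in WD. In NC it was detected in 27 of 83 members and the 10 highest held 85.9% of its UMIs. In WD it was detected in 6 of 121 members. Gzme was detected in 36 NC and 11 WD members, and Gzmf in 57 and 26. A single WD member of 134583 UMIs held 139 of the 205 Gzmd UMIs there (67.8%), 58.2% of Gzme, 49.0% of Gzmf and all 20 of Gzmg. That cell also held genes of the myeloid list. Without it WD members held 7.002 CPM of Gzmd, and Gzmd, Gzme and Gzmf were no longer 2-fold higher in both libraries, which left 3 of the 6 genes. When all members with genes of another lineage were left out, 2 remained, Fabp5 and Psat1.

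Gzmf stood at 638 CPM against 291 in NC and 76.6 against 21.7 in WD, and Gzme at 119 against 40.2 and 26.0 against 12.2. Gzmc stood at 644 against 190 in NC, a log2 ratio of 1.76, and at 82.7 against 55.1 in WD, 0.59. In NC the members high in Gzmd were high in the others, but not the reverse. All 15 with at least 10 Gzmd UMIs had a Gzme UMI and at least 10 of Gzmc, and 13 had at least 10 of Gzmf, while of all 83 NC members 45 had at least 10 Gzmc UMIs and 41 at least 10 of Gzmf. No UMI of Gzmc to Gzmg was found in 10 NC and 52 WD members. Gzmd and Gzme transcripts are 94.8% identical, and 7 of 411 windows of 90 bases in the last 500 of Gzmd occur unchanged in Gzme, so part of their split is uncertain. No such window was shared by any other pair of Gzmb to Gzmg.

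**Figure D3:**
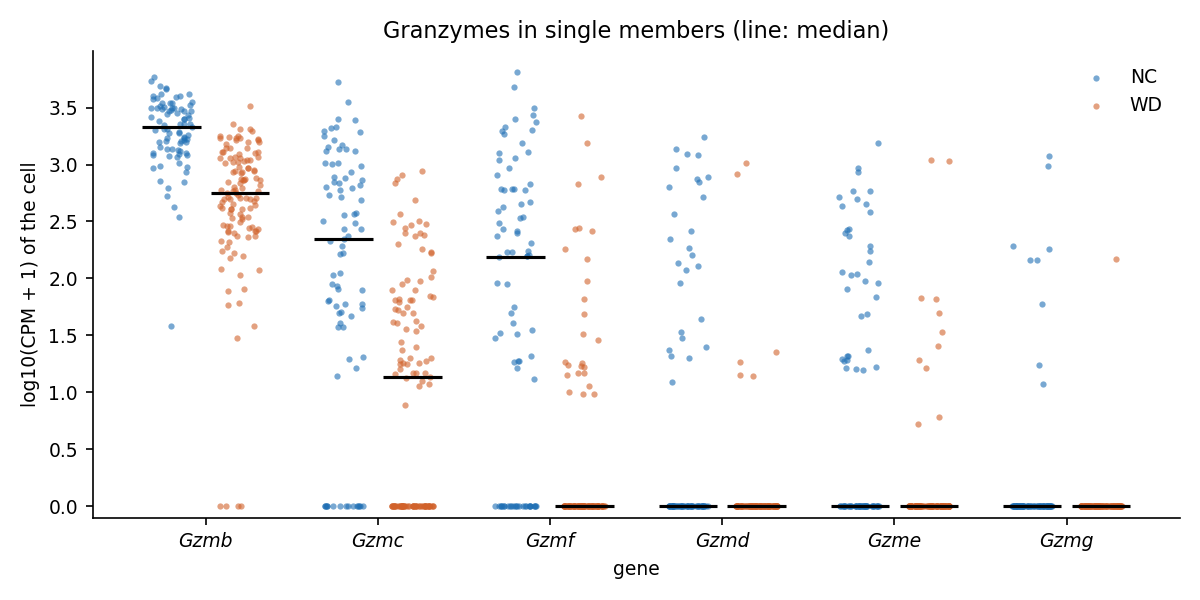
Level of 6 granzyme genes in single members, as log10(CPM + 1) of the cell (y axis), for NC (83 points each) and WD (121 points each), with the median as a line. Gzmb is present in nearly every member, while the medians of Gzmd, Gzme and Gzmg are 0 in both libraries and the few high cells are mostly NC.

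Gzma (chr13:113093825-113100981), which lies outside the cluster, went the other way. It stood at 9.21 CPM in NC members against 106 in other NC cells, and at 7.11 against 81.5 in WD (log2 ratio -3.53 and -3.52). It was detected in 14 NC and 23 WD members. In NC 1 cell held 39.6% of its UMIs and in WD 1 cell held 54.4%. It passed the filter only through the other cells, and it stayed 2-fold lower against cycling cells (-3.39 and -3.17) and against cells from 20000 UMIs (-1.83 and -1.19).

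Genes of naive and memory cells were depleted. The list summed to 240 CPM in NC members against 940 in other cells, and to 279 against 1033 in WD (log2 ratio -1.97 and -1.89). This sum covers the whole list of 10 genes. The 5 that passed the filter on low values were each at least 2-fold lower, but 4 of them, all but Klf2, passed only through the other cells, where they were high. Tcf7 (chr11:52252371-52283014), which encodes the transcription factor TCF-1 of stem-like T cells, stood at 9.73 CPM against 57.2 in NC and 8.16 against 55.4 in WD. Il7r, the receptor of a survival cytokine, stood at 23.1 against 92.9 and 11.1 against 94.9. Klf2, which keeps T cells quiescent and recirculating, was the list gene with the most UMIs and stood at 137 against 510 and 192 against 586. Ccr7 and Satb1 were the other two. Most of the contrast came from the shallow cells, since against cells from 20000 UMIs the list gave -0.29 in NC and -0.51 in WD.

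Among the 43 lower genes were others with known roles in lymphocytes. Bcl2, which protects from apoptosis, reached -2.08 in NC and -1.93 in WD, Gpr183, an oxysterol receptor that guides lymphocytes, -1.85 and -2.11, and Arl4c, a small GTPase, -2.29 and -2.19. Ssh2, a cofilin phosphatase, reached -1.87 and -2.02, and Socs3, a brake on cytokine signaling, stood at 12.2 CPM against 45.8 in NC and 14.02 against 71.0 in WD. Ifit3 and Isg15, both induced by interferon, reached -2.01 and -2.68 and -1.10 and -2.28. All 7 tested interferon-stimulated genes were lower in both libraries, 2 by 2-fold (3 passed the filter only through the other cells), and the list summed to 1395 CPM against 1975 in NC and 1459 against 2240 in WD. Immediate early genes, induced within minutes by receptor signals or by handling of cells, were lower for 8 of 9, with Zfp36 at -1.28 and -1.39 the 1 past 2-fold. The list stood at 2407 CPM against 3375 in NC and 3278 against 5147 in WD. Both lists were closer to the cells from 20000 UMIs. Against these the interferon list gave -0.12 in NC and -0.27 in WD, and the immediate early list 0.026 in NC, with an interval of -0.0040 to 0.055 that holds 0, and -0.14 in WD.

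Further genes of the 43 are named here after their values were seen. Malat1, a nuclear noncoding RNA, stood at 6153 CPM against 13451 in NC and 4815 against 14228 in WD. AY036118, Gm42418 and Gm26917, predicted genes whose counts are widely taken to include ribosomal RNA, and Lars2, which charges the leucine tRNA of mitochondria, were all 2-fold lower, Lars2 at 216 CPM against 1063 in NC and 144 against 625 in WD. The chemokine receptor gene Cxcr3 reached -1.94 and -1.60, and Cd69, an early activation and tissue retention marker, -1.11 and -1.33.

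Cytokine and chemokine genes summed to less in members, at 8676 CPM against 9683 in NC (-0.16) and 6282 against 8929 in WD (-0.51). Against cells from 20000 UMIs the sum gave 0.073 in NC and -0.15 in WD. Of 7 tested cytokine, chemokine and death ligand genes, 5 were higher in both libraries and 2 lower, none by 2-fold in both. Over all 2857 tested genes, 1789 were higher in both and 758 lower. Ifng, the gene of interferon gamma, stood at 789 CPM against 580 in NC and 578 against 525 in WD, and Ccl3, an inflammatory chemokine, at 1562 against 990 and 932 against 611. Ccl5, a chemokine stored by memory-like cells, was lower, at 2930 against 5017 in NC and 2144 against 5348 in WD. Ccl1 was past 2-fold in NC (1.198), where 1 member held 48.2% of its UMIs, and not in WD (0.09). Of 7 tested checkpoint genes, 4 were higher in both, none by 2-fold, 2 were lower in both and 1 differed in sign between libraries. This count stands beside the same 1789 of 2857 genes higher in both. Entpd1, among the 4, passed the filter only through the members. The checkpoint list gave 0.16 in NC and 0.19 in WD, but 0.042 and -0.047 against cells from 20000 UMIs. Pdcd1, the gene of PD-1, stood at 265 against 205 in NC and 216 against 146 in WD, Havcr2, the gene of TIM-3, at 141 against 99.5 and 70.2 against 55.2, and Lag3 at 277 against 278 and 160 against 150.

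Granule genes were lower in WD than in NC members. Within members, 3 of 2695 genes were at least 2-fold higher in WD than in NC (0.111%), and 27 were at least 2-fold lower (1%). Counting any size of difference, 1562 of the 2695 were higher in WD members and 1133 lower. Of 11 tested granule genes, all 11 were lower in WD members and 7 by 2-fold, with a median log2 ratio of -1.54 against -1.09 in other cells. The list gave -1.13 in members and -0.61 in other cells. Gzmb gave -1.61 in members and -1.09 in other cells, and Prf1 -1.54 and -1.29. Gzmf, Gzmc and Gzmd gave -3.06, -2.96 and -2.92 and were 3 of the 5 lowest. In other cells they gave -3.75, -1.79 and -3.24. Without the highest cell of each library the ratios in members were -3.79, -3.02 and -4.30. Serpinb9b (chr13:33027416-33041884), of the Serpinb9 family of protease inhibitors, was the lowest, at 54.8 CPM in NC and 4.39 in WD members (-3.64, and -4.43 without the highest cells), and other cells gave -2.83. The ratios of Serpinb9b, Gzmd and Gzmf rest on few WD cells, since Serpinb9b was detected in 26 NC and 7 WD members, Gzmd in 27 and 6, and Gzmf in 57 and 26. Gzmc was detected in 68 and 66. Terf2ip, the other of the 5, was at 89.3 CPM in NC and 12.6 in WD, but 1 NC member held 81.7% of its UMIs, and without the highest cells the ratio was -0.42.

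G2/M and growth genes went the other way. All 33 tested G2/M genes were higher in WD than NC members, none by 2-fold, with a median log2 ratio of 0.58, against 0.17 in other cells and 0.03 in cycling cells. Ccnb1, the cyclin of mitotic entry, stood at 37.2 CPM in NC and 73.3 in WD members (0.98). Hist1h2bc, a histone gene, stood at 48.3 and 95.1, while 9 of 14 tested histone genes were lower in WD members. Of 14 tested growth genes, 13 were higher in WD members, with a median log2 ratio of 0.42, against 0.27 in other cells and 0.23 in cycling cells. All 11 glycolysis genes were lower in WD members, Eno1 by 2-fold (-1.199, against -1.26 in other cells). Their median was -0.17 in members, nearer to 0 than the -0.31 of other cells and the -0.32 of cycling cells. The 3 genes 2-fold higher in WD members were Gm43305, Rpl10-ps3 and Gmcl1. Gm43305, a predicted gene, stood at 21.6 CPM in NC and 141 in WD members, with a ratio of 2.71 against 2.06 in other cells, and Rpl10-ps3, a pseudogene of a ribosomal protein, gave 1.32 against 1.22. Gmcl1 gave 1.25, but 1 WD member held 398 of its 551 UMIs, and without the highest cell of each library the ratio was -0.02.

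**Figure D4:**
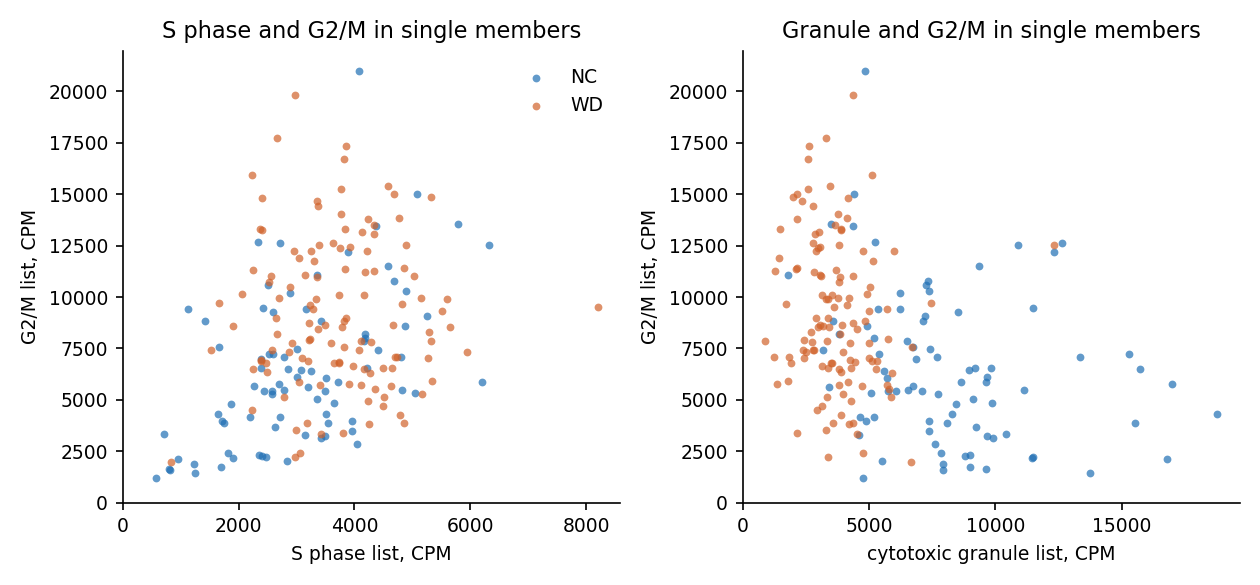
Summed CPM of the G2/M list (y axes) against the S phase list (left) and the cytotoxic granule list (right) in single members, 83 NC and 121 WD points. WD members sit higher on the G2/M axis (median 8648 against 5866 CPM) and lower on the granule axis (median 3583 against 7623), with overlap in both.

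Members varied widely among themselves. G2/M genes ranged from 1211 to 20979 CPM in NC members (median 5866) and from 1999 to 19829 in WD (median 8648). Granule genes ranged from 1791 to 18768 in NC (median 7623) and from 904 to 12327 in WD (median 3583). As the plot of single members shows, the libraries overlapped on both measures. Granule and G2/M sums were weakly opposed, with a Spearman coefficient of -0.29 over 83 NC and -0.21 over 121 WD members, and both are shares of the same cell's UMIs. With the UMI total of the member, G2/M sums gave 0.06 in NC and 0.19 in WD, and granule sums 0.09 and 0.07.

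Genes of other lineages were sought in each cell, with at least 2 genes of a list at 2 UMIs or more each taken as co-expression. By this rule 15 of 83 NC members (18.1%, interval 10.5 to 28.0) and 27 of 121 WD members (22.3%, 15.2 to 30.8) co-expressed a list, against 2.52% and 2.97% of other cells and 7.24% and 7.69% of those from 20000 UMIs. At 10000 UMIs each the shares were 2.41% and 2.48% of members, 3.22% and 2.88% of cells from 20000 UMIs and 3.36% and 2.85% of all other cells deep enough. At equal depth, where 2 NC and 3 WD members counted, no excess over other cells was seen.

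The dendritic list made up most of it, in 15 NC and 19 WD members, followed by the myeloid list in 2 and 5 and the gamma-delta T cell list in 0 and 4. Cd74, the invariant chain of MHC class II and the list's most abundant gene, stood at 164 CPM in NC members against 72.2 in other cells, and at 111 against 130 in WD. Activated mouse T cells can hold low Cd74, whereas Siglech and Xcr1, of plasmacytoid and cross-presenting dendritic cells, are more particular. Siglech was seen in 1 NC and 2 WD members, Xcr1 in 3 and 0. The dendritic list summed to 238 CPM in NC members against 99.0 in other cells and to 143 against 208 in WD.

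A single NC member of 55305 UMIs stood apart. It held 695 UMIs of the dendritic list, 1.26% of its total, with 414 of Cd74, 138 of H2-Ab1, 105 of H2-Aa, 19 of Siglech, 9 of Xcr1 and 7 of Flt3. It also held 66 UMIs of Cd8a and Cd8b1 and 113 of the CD3 genes. It had 4 cycle UMIs of 2000, and accounted for 43.9% of the Cd74 and 71.9% of the H2-Aa UMIs of all NC members. In the other 14 co-expressing NC members the list reached at most 141 UMIs. A WD member of 51277 UMIs held 134 UMIs of the list, with 16 of Siglech. The deepest member, a WD cell of 232119 UMIs, held 64, with 15 of Siglech. That cell also co-expressed the myeloid list and the stroma and endothelium list. Melanoma genes summed to 2.26 CPM in NC and 1.67 in WD members, red cell genes to 0 and 0.209, B cell genes to 12.3 and 51.6, mostly Ighm with Ms4a1 at 0, and NK cell genes to 4.52 and 10.9, mostly Tyrobp. Gamma-delta T cell genes summed to 24.7 and 36.4 CPM, mostly Tcrg-C2, myeloid genes to 22.3 and 15.8, stroma and endothelium genes to 5.56 and 9.62, mostly Pecam1, and CD4 T cell genes to 3.48 and 5.33. The part of these transcripts in the results above was not tested beyond leaving out the co-expressing members.

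**Figure D5:**
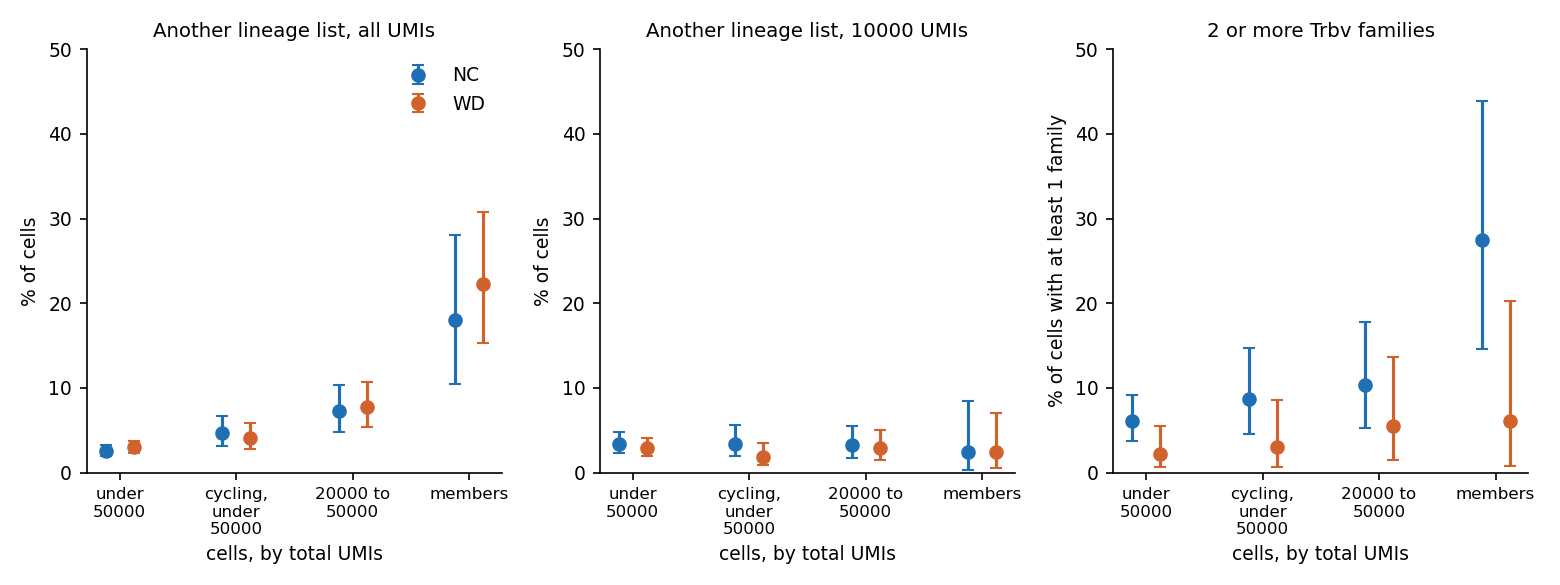
Share of cells (y axes, percent) co-expressing a list of another lineage with all UMIs (left) and at 10000 UMIs (middle), and share with 2 or more Trbv families among cells with at least 1 (right), for 4 sets of cells per library, with 95% Clopper-Pearson intervals. Members are highest at full depth (18.1% and 22.3%) and level with the other sets at 10000 UMIs (2.41% and 2.48%). In the right panel NC members are highest (27.5%), with an interval that overlaps that of NC cells from 20000 UMIs.

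A T cell usually makes 1 functional T cell receptor beta chain, so 2 Trbv families in 1 barcode can mark 2 cells or a second, often unproductive, transcript. Among members with at least 2 UMIs of 1 or more of 31 families, 11 of 40 in NC held 2 or more (27.5%, interval 14.6 to 43.9) and 2 of 33 in WD (6.06%, 0.743 to 20.2). In other cells the shares were 6.04% and 2.17%, and in those from 20000 UMIs 10.38% and 5.56%. The NC share of members lay above that of other NC cells beyond counting error, and the interval overlapped that of cells from 20000 UMIs (5.30 to 17.8). At 10000 UMIs only 4 NC and 2 WD members had a family and none had 2, so depth and pairs of cells cannot be told apart here.

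The 11 NC members with 2 families were not deeper than the others, with a median of 63662 UMIs, the same as that of all NC members, and 6709 genes. All 11 were past the cycling cut, and 3 of them also co-expressed another lineage. Without the members with 2 families, the 6 higher genes stayed and 47 were lower, 43 of them shared with the main count. Without those and without co-expressing members, 2 were higher and 46 lower. Between the libraries, 4 barcodes were shared and 1 of them was a member, in NC.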

How the data were processed

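The authors deposited raw UMI counts per gene and cell for 1 NC and 1 WD library; the submitters' processing notes name Cell Ranger 6.0.2 and the build mm10. The counts cover 32285 features, and 40 rows that share a symbol were summed. The deposited barcodes number 5320 (2697 NC, 2623 WD), the cell count that the study's methods state, whereas the limits stated there leave 4745 (2456 NC, 2289 WD). Members and lists were chosen with earlier results of these data known.

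Counts were summed over the cells of a set and divided by the set's total to give CPM, since cells are not replicates and 1 library per diet allows no test. Intervals are 95% exact Poisson, Clopper-Pearson or conditional binomial intervals, which cover counting error only. Genes with at least 50 CPM in members or other cells of a library and 20 UMIs in members and in others were compared, and log2 ratios of at least 1 or at most -1 in both libraries counted as 2-fold. Cells were thinned with seed 1. Named were, per list, the gene with the most UMIs in members and those with the highest and lowest ratio, the 10 highest and 10 lowest ratios of members to others (by the smaller of both libraries) and the 5 highest and 5 lowest of WD to NC, unless a sentence says that a gene was chosen later. Other genes of the lists are named as examples. No doublets were removed and no doublet caller was run. Alternatives for the lists were other UMI and mitochondrial limits, totals, means over cells, thinning, TMM factors (edgeR 4.0.16, R 4.3.3), other comparison cells and leaving out co-expressing members. Chosen after seeing the data were leaving out members of 2 Trbv families or the WD member with the most Gzmd UMIs, other cycling cuts and all alternatives for the counts of 2-fold genes. Positions are from GENCODE M21, which held 32196 of 32245 identifiers, and promoters from RefSeq (GRCm38.p6). Python 3.11.15, numpy 2.4.6, scipy 1.17.1, pandas 2.3.3, matplotlib 3.10.9 and Biopython 1.88 were used. Only the log2 ratios with their intervals, the 2-fold calls and the thinning were tested on simulated data. The counts simulated for the ratios held no spread between cells.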

Additional observations from a re-analysis of the deposited data

Results flagged for a closer look

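In 8 cases flagged among the lists and genes above, the ratio of members to other cells was above 0 in one library and below 0 in the other. Each was beyond counting error. These are not all such cases. Of all 2857 tested genes, 310 had opposite signs of any size between the libraries, and so did the dendritic list. With TMM factors Nkg7 and Nfkbia were below 0 in both libraries (-0.056 and -0.050 in NC), which ended 2 of the 8 cases, and the granule list in WD turned above 0 under 3 other settings (0.0029 to 0.022). With 1 library per diet none of these differences between libraries was tested. The cytotoxic granule list gave a log2 ratio of 0.50 in NC and -0.025 in WD. Within it Nkg7, a granule membrane protein gene of cytotoxic cells, gave 0.071 and -0.18. Thy1, a surface glycoprotein gene of T cells, gave 0.31 in NC and -0.14 in WD. Among cycle genes, Hjurp gave -0.28 and 0.23 and the linker histone gene Hist1h1c -0.16 and 0.10. Nfkbia, the inhibitor of NF-kappa-B induced by its own pathway, gave 0.078 and -0.078. Cd74 gave 1.18 in NC, where 1 member held 43.9% of its UMIs, and -0.22 in WD. Terf2ip, a telomere protein gene, gave 0.62 in NC, where 1 member held 81.7% of its UMIs, and -0.36 in WD.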

How the results depend on the processing

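Of 79 alternative values, 26 stayed within counting error or within 1.5 times a count, 51 moved beyond it and 2 reversed. Values for lists are log2 ratios, averaged over both libraries unless said otherwise. Against cells past the cycling cut, which both cycle lists had chosen, G2/M genes reversed from 0.62 to -0.20 on average (-0.43 in NC, but 0.029 in WD, which did not reverse) and S phase genes from 0.58 to -0.16 (-0.26 and -0.070), while granule genes gave 0.21 (0.24 in the report's setting) and naive and memory genes -0.61 (-1.93). Against cells from 20000 UMIs the 4 lists gave 0.066, 0.036, 0.069 and -0.40, where the first 3 averages join opposite signs (-0.14 in NC and 0.27 in WD for G2/M, -0.026 and 0.098 for S phase, 0.25 and -0.11 for granule genes). With a limit of 40000 UMIs they gave 0.69, 0.69, 0.17 and -2.004, and with 60000 the first 3 gave 0.59, 0.53 and 0.27. Totals without mitochondrial and ribosomal protein genes gave 0.56, 0.52, 0.18 and -1.99, TMM factors 0.53, 0.49, 0.15 and -2.02, means over cells 1.06, 0.997, 0.36 and -2.46, and thinning to 2000 UMIs 1.01, 1.07, 0.33 and -2.64. In WD alone granule genes went from -0.025 to 0.022 with 60000 UMIs, 0.0029 for means over cells and 0.011 after thinning. Granule genes gave 0.18 without co-expressing members and 0.22 without those of 2 Trbv families. Within members, WD against NC, granule genes moved from -1.13 to -1.03 at 40000 UMIs, -1.11 without mitochondrial and ribosomal protein genes, -1.09 with TMM factors, -1.199 without co-expressing members, -1.07 after thinning and -1.11 without those of 2 Trbv families. The share of cells at the limit went from 3.27% to 5.24% at 40000 and 1.97% at 60000 UMIs in NC, and from 5.02% to 7.72% and 3.57% in WD. The 6 genes 2-fold higher became 3 without the WD member with the most Gzmd UMIs, 2 without co-expressing members, 0 against cells from 20000 UMIs and 2 against cycling cells, and the 43 lower became 1 and 5 in the last 2 settings. A cycling cut of 5 list UMIs gave 96.4% of NC and 100% of WD members, and a cut of 15 gave 67.5% and 89.3%. Apart from the comparison cells, members left out and cuts, whose construction sets the change, the cause of these shifts was not tested. No paired analysis was possible because each diet had 1 library. Genes under 50 CPM, such as Gzmg and S1pr1, were too sparse to compare.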
